A study of Homo sapiens with 12 samples.

Results

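Expression of PTX3 and of 9 inflammatory mediators was followed in rhabdomyosarcoma (RMS) cells after KDM3A depletion. The 10 genes (PTX3, IL6, IL11, LIF, CCL2, CXCL1, CXCL12, TNFRSF12A, NFKBIA and TNFAIP3) were taken by symbol from a table of 65975 genes, and each was found under 1 gene identifier. PTX3 was selected on its measured rise in RD cells with KDM3A depletion, so that its values in RD are a description and carry no test here. The other 9 were taken as cytokines, chemokines and NF-κB feedback genes.

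The patient-derived line RD stands for fusion-negative RMS (FN-RMS), and the patient-derived line Rh30 for fusion-positive RMS (FP-RMS). All cells were transduced with shRNA lentivirus and kept under Puromycin, with a Scrambled control sequence (Scramble) or with 1 shRNA against KDM3A (KDM3A-sh2). PolyA RNA was sequenced from 3 libraries in each of the 4 groups, RD Scramble, RD KDM3A-sh2, Rh30 Scramble and Rh30 KDM3A-sh2. KDM3A is a histone demethylase that removes methyl groups from lysine 9 of histone H3, and the comparison within each line asks which transcripts change when it is depleted. RMS subtype is represented by 1 line each and RD and Rh30 were grown in different media, DMEM and RPMI, so subtype, line and medium cannot be told apart. A second shRNA was not analysed here, and since separate cultures are not stated for the libraries of a group, p-values measure only the spread between these libraries, which may be technical.

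PTX3 is a long pentraxin, a secreted pattern recognition protein that binds complement factors and FGF2 and is typically induced by IL-1 and TNF. IL-6, IL-11 and LIF are cytokines of the IL-6 family, which signal through the shared receptor chain gp130 (IL6ST) to JAK kinases and STAT3, with SOCS3 as an induced inhibitor. CCL2, CXCL1 and CXCL12 are chemokines that attract monocytes, neutrophils and CXCR4-bearing cells, respectively. TNFRSF12A (Fn14) is the receptor of the TNF family ligand TWEAK and can activate NF-κB, and NFKBIA (IκBα) and TNFAIP3 (A20) are NF-κB targets that in turn restrain the pathway. Many genes of this kind carry κB motifs, the DNA sites bound by NF-κB, close to their start.

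The sequence upstream of the start was present in the RefSeq promoter set (GRCh38.p14) for 7 of the 10 genes, which did not include LIF, CCL2 and TNFRSF12A. A consensus κB motif, searched on both strands, lay within 250 bases upstream of the RefSeq start in 5 of these 7 genes, namely PTX3, IL6, CXCL1, NFKBIA and TNFAIP3, and in 9.96% of 35116 promoters of the same length. In PTX3 it was matched at 97 to 88 and again at 96 to 87 bases before the start, so that 2 overlapping matches made up 1 stretch. The AP-1 motif TGANTCA, also searched on both strands, was found in IL11 alone, 96 to 90 bases before the start, and in 6.57% of all promoters. CXCL12 had neither motif in this window. Stretches for PTX3, IL6, IL11 and NFKBIA are shown because these genes moved in different ways below. They run 5′ to 3′ on the strand of the gene, were cut to hold no base that GENCODE 29 annotates as exon, and have the bases of a motif match in capitals. The PTX3 stretch is chr3:157436600-157436788 (plus strand), the IL6 stretch chr7:22726950-22727146 (plus strand, inside the longer span that GENCODE 29 gives IL6), the IL11 stretch chr19:55370464-55370713 (minus strand) and the NFKBIA stretch chr14:35404750-35404999 (minus strand). A match describes the letters in the window and does not show that the site was bound in these cells.
PTX3: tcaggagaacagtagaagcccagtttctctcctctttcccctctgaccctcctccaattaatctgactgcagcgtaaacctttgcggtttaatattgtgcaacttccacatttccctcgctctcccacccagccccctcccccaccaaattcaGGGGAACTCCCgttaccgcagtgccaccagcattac
IL6: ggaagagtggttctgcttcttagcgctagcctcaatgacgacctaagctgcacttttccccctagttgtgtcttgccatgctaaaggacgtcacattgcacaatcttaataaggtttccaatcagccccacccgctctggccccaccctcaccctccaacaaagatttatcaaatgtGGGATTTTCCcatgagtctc
IL11: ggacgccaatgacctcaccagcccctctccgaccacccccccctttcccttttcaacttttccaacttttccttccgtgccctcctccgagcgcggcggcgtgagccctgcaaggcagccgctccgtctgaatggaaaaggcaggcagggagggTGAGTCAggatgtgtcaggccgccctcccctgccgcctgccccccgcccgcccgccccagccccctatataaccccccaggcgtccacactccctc
NFKBIA: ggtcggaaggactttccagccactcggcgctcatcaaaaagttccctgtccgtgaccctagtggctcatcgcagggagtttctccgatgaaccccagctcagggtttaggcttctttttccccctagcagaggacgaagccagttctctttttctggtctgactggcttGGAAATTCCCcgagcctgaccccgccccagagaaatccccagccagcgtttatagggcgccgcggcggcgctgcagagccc

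KDM3A itself, on chr2:86440647-86492716, was lower in all 3 KDM3A-sh2 libraries than in all 3 Scramble libraries of each line. In RD its level was 35.8, 33.9 and 30.9 FPKM (fragments scaled to exon length and library size) with Scramble and 12.0, 11.2 and 13.4 FPKM with KDM3A-sh2, which left 36.3% of the mean. In Rh30 it was 27.8, 29.2 and 32.0 FPKM with Scramble and 13.7, 13.2 and 15.4 FPKM with KDM3A-sh2, which left 47.6%. The fall was larger in RD by 0.37 ± 0.12 on the log2 scale (limma over all 12 libraries, adjusted p = 0.0388), so the effects of KDM3A-sh2 in RD and Rh30 were measured at unequal depletion. Summed FPKM per library ran from 1198300 to 1379197, and relative depth, read from the step between the lowest values, from 0.868 to 1.17 of the median library. It was lower with KDM3A-sh2 (0.868 to 0.986) than with Scramble (1.06 to 1.17) in RD, and 0.946 to 0.997 against 1.00 to 1.02 in Rh30. Of 8 muscle lineage markers, 6 were at or above 1 FPKM in RD and 5 in Rh30. Their summed level was higher with KDM3A-sh2 in both lines, 2618 to 2739 against 2104 to 2321 FPKM in RD and 2601 to 2629 against 2199 to 2429 FPKM in Rh30. By limma, 2 of the 6 tested rose and 3 fell in RD, and 2 of 5 rose and 1 fell in Rh30. These calls were 83.3% and 60.0%, beside 41.1% and 28.5% of all genes tested. The sums rose through different genes. In RD the mean of CHRNA1 went from 1074 to 1436 FPKM and that of MYOG from 184 to 167 FPKM. In Rh30 CHRNA1 went from 456 to 292 FPKM and MYOG from 691 to 1017 FPKM. Of 8 leukocyte markers 7 were under 1 FPKM in both RD groups and all 8 in both Rh30 groups, and their summed level in RD, 15.9 to 17.8 FPKM with Scramble and 23.2 to 25.4 FPKM with KDM3A-sh2, came mostly from CD68 (15.4 and 22.65 FPKM in the mean). Of 6 endothelial markers 4 were under 1 FPKM in RD and 5 in Rh30, with sums between 4.17 and 7.17 FPKM. The part of these markers and of depth in the changes below was not tested.

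In RD cells PTX3 (chr3:157436789-157443628) was the member with the largest change. Its level was 51.9, 50.5 and 52.1 FPKM in the RD Scramble libraries and 139.5, 134 and 143 FPKM in the RD KDM3A-sh2 libraries. The groups lay far apart, and the mean was 2.69 times higher with KDM3A-sh2, or 1.41 ± 0.04 (SE) on the log2(FPKM + 1) scale. By this difference PTX3 ranked 57 of 17988 genes tested in RD and 19 of the 10804 among them that averaged 10 FPKM or more. In bulk RNA, a change in the share of cells that express a gene and a change in RNA per cell cannot be told apart.

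In Rh30 cells PTX3 was close to absent. It was listed at 0, 0.025 and 0.026 FPKM with Scramble and at 0.21, 0.22 and 0.13 FPKM with KDM3A-sh2. All 3 KDM3A-sh2 libraries were above all 3 Scramble libraries, but at levels under the minimum of 1 FPKM for a test, and the exact permutation test of 3 against 3 libraries gave p = 0.1, the smallest it can give. The same was seen in other genes that are high in RD and nearly absent from Rh30. Of 14 protein-coding genes with at least 50 FPKM in RD Scramble and under 0.1 FPKM in Rh30 Scramble, 11 (78.6%) were higher in all 3 Rh30 KDM3A-sh2 libraries than in all 3 Rh30 Scramble libraries. Their median level was 0.201% to 0.269% of that in RD in the Rh30 KDM3A-sh2 libraries and 0% to 0.00904% in the Rh30 Scramble libraries, against 0.0928% to 0.156% and 0% to 0.0496% for PTX3. The part of this common low level in the PTX3 values of Rh30 was not tested. The 14 genes were chosen for a low mean in Rh30 Scramble, which favours higher values in Rh30 KDM3A-sh2. The share over all genes was not counted. In the reverse set, 2 genes had at least 50 FPKM in Rh30 Scramble and under 0.1 FPKM in RD Scramble. Of these, 1 was higher in all 3 RD KDM3A-sh2 libraries than in all 3 RD Scramble libraries.

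**Figure D1:**
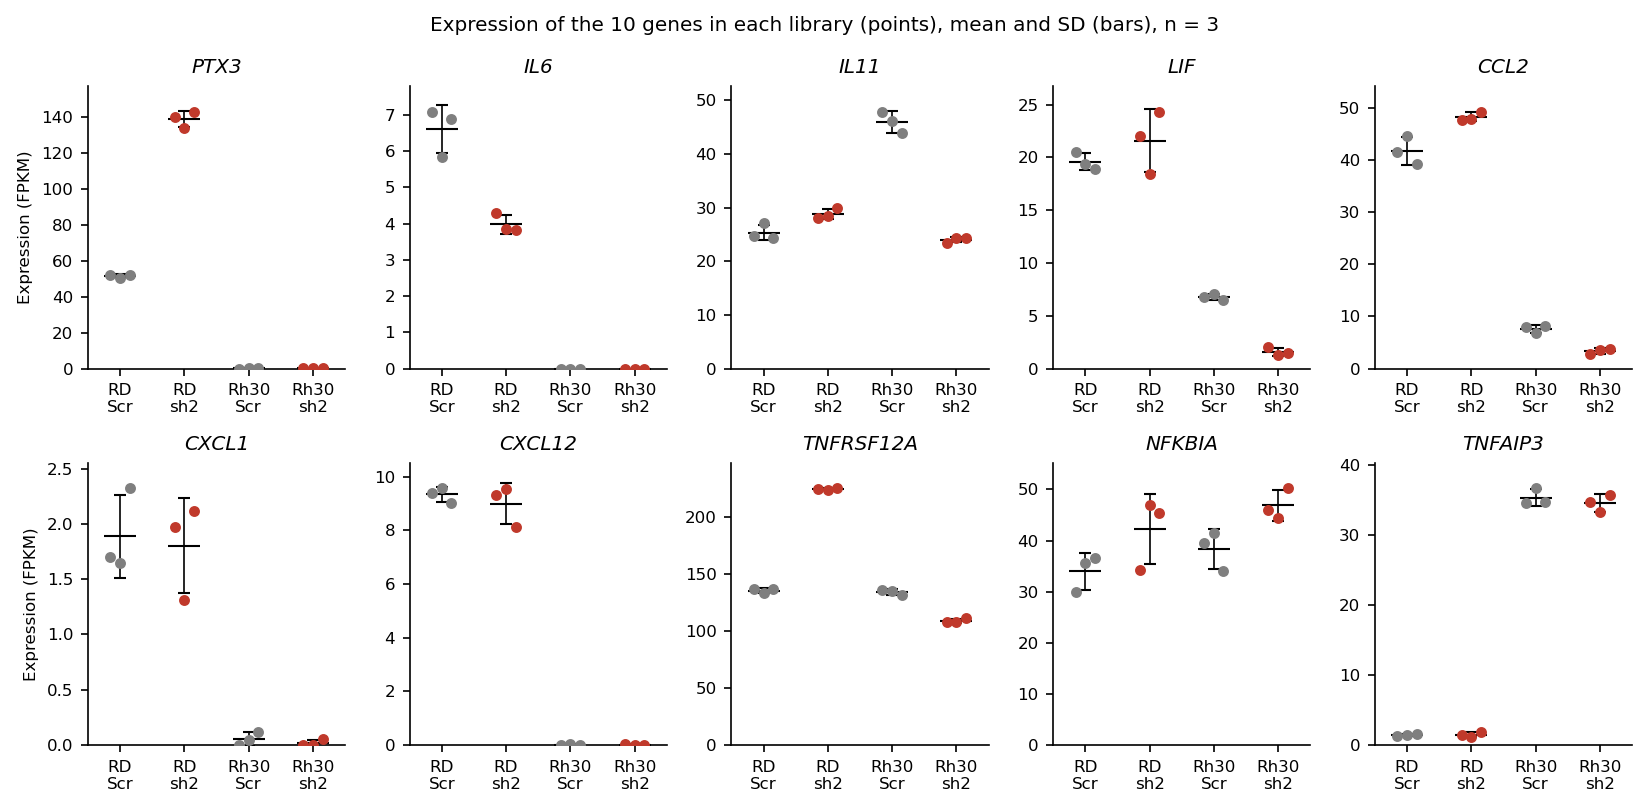
Expression of each of the 10 genes in FPKM (vertical axes, linear from 0, each with its own range) in the 3 libraries of RD Scramble, RD KDM3A-sh2, Rh30 Scramble and Rh30 KDM3A-sh2. Points are libraries (grey Scramble, red KDM3A-sh2) and black bars the mean and SD. PTX3 sits at 50.5 to 52.1 FPKM in RD Scramble and 134 to 143 FPKM in RD KDM3A-sh2, IL6, CXCL1 and CXCL12 are at or near 0 in Rh30, and TNFAIP3 is at 1.11 to 1.86 FPKM in RD and 33.2 to 36.7 FPKM in Rh30.

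Among the other pentraxins and the partners of PTX3, a list of 16 genes, 7 were tested in RD. Of these 3 passed (42.9%, beside 41.1% of all genes tested), all of them higher. NPTX2, a neuronal pentraxin, was the most abundant, with 220.0, 227 and 223 FPKM in RD Scramble and 396, 404 and 394 FPKM in RD KDM3A-sh2, and rose by 0.83 ± 0.03 on the log2 scale (limma, adjusted p = 1.24e-05). NPTX2 was listed at 0 in all 3 Rh30 Scramble libraries and at 0.45, 0.51 and 0.43 FPKM with KDM3A-sh2, and it is among the 14 genes described above. NPTXR, the neuronal pentraxin receptor, rose by 0.29 ± 0.09 (adjusted p = 0.0357). The short pentraxins CRP and APCS were listed at 0 in all 12 libraries. In Rh30 both genes of the list that were tested fell, beside 13.2% of all genes tested there. Among them was FGF2, a growth factor that PTX3 can bind, which fell by 0.45 ± 0.08 on the log2 scale (limma, adjusted p = 0.00651).

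The 9 members other than PTX3 were tested in RD with limma on log2(FPKM + 1), with Benjamini-Hochberg adjustment over all 17988 genes that averaged 1 FPKM or more and a threshold of 0.05. TNFRSF12A, CCL2 and IL11 rose and IL6 fell, which is 3 rises and 1 fall among 9. Of all genes tested in RD, 21.6% rose and 19.5% fell, 41.1% in all, so the share of members called was near that of genes at large. In Rh30, 6 members reached 1 FPKM and were tested. LIF, CCL2, IL11 and TNFRSF12A fell and NFKBIA rose, which is 1 rise and 4 falls among 6, beside 15.3% of 17803 genes that rose and 13.2% that fell, 28.5% in all. The median log2 fold change of the members tested was 0.13 in RD (without PTX3) and −0.60 in Rh30, and that of all genes 0.01 and 0.03.

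**Figure D2:**
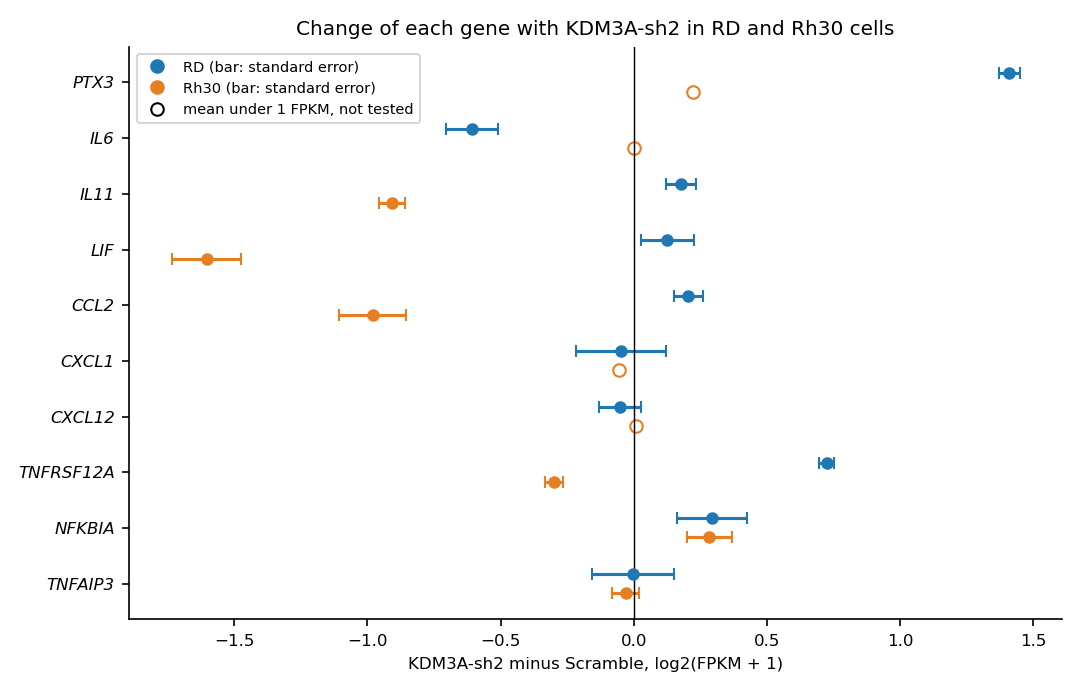
Difference between KDM3A-sh2 and Scramble on the log2(FPKM + 1) scale (horizontal axis) for each of the 10 genes, in RD (blue) and Rh30 (orange), with the standard error as bars. Open circles are genes with a mean under 1 FPKM in Rh30, which were not tested. IL11, LIF, CCL2 and TNFRSF12A lie to the right of 0 in RD and to the left in Rh30, while NFKBIA lies to the right in both, at 0.30 and 0.28.

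Of the IL-6 family ligands, IL6 was expressed in RD only. IL6 (chr7:22725884-22732002) was at 7.09, 5.85 and 6.89 FPKM in RD Scramble and 4.29, 3.84 and 3.82 FPKM in RD KDM3A-sh2, and was listed at 0 in all 6 Rh30 libraries. The RD groups did not overlap, and the mean with KDM3A-sh2 was 60.3% of that with Scramble. IL6 thus fell in RD by 0.61 ± 0.10 on the log2 scale (limma, adjusted p = 0.00293), and it was the only member called lower there.

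IL11 and LIF were expressed in both lines. IL11 (chr19:55364389-55370463, minus strand) was at 24.6, 27.0 and 24.4 FPKM in RD Scramble and 28.0, 28.4 and 29.9 FPKM in RD KDM3A-sh2. It rose in RD by 0.18 ± 0.06 on the log2 scale (limma, adjusted p = 0.0451). This call was kept without Scramble replicate 2 and lost when any of the other 5 RD libraries was left out (adjusted p up to 0.124). In Rh30, IL11 was at 47.9, 46.2 and 43.8 FPKM with Scramble and 23.5, 24.4 and 24.3 FPKM with KDM3A-sh2. The 2 groups were well separated, and IL11 fell by 0.91 ± 0.05 (adjusted p = 0.00012), to 52.3% of the mean with Scramble.

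LIF (chr22:30240447-30246851, minus strand) was at 20.5, 19.3 and 18.9 FPKM in RD Scramble and 22.0, 18.4 and 24.3 FPKM in RD KDM3A-sh2. These ranges overlapped, and the difference of 0.13 ± 0.10 on the log2 scale did not pass the test (limma, adjusted p = 0.354). In Rh30, LIF was at 6.76, 7.09 and 6.45 FPKM with Scramble and 2.01, 1.24 and 1.47 FPKM with KDM3A-sh2. It fell by 1.60 ± 0.13 (adjusted p = 0.0004), the largest change of any member tested in either line, and the mean with KDM3A-sh2 was 23.2% of that with Scramble.

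The receptor genes of these cytokines were examined next. IL6R, the IL-6 binding chain, rose in RD from 2.40, 2.00 and 1.82 FPKM to 4.91, 4.87 and 4.79 FPKM, by 0.94 ± 0.11 on the log2 scale (limma, adjusted p = 0.000633), and was at 0.64 and 0.62 FPKM in the mean in Rh30. IL6ST, the shared gp130 chain, was at 38.3 ± 6.6 and 44.1 ± 5.4 FPKM in RD (SD, n = 3 each, adjusted p from limma = 0.273). Its level fell in Rh30 from 40.9 ± 2.9 to 23.4 ± 3.1 FPKM (adjusted p from limma = 0.00239). The chain and its ligands IL11 and LIF were thus lower there with KDM3A-sh2, but not every ligand of the family was. CTF1 (cardiotrophin-1) went the other way in Rh30, from 2.84 FPKM in the mean with Scramble to 4.48 FPKM with KDM3A-sh2, and these groups did not overlap. IL11RA and LIFR, the chains specific to IL-11 and LIF, did not pass the test in either line. The IL11RA means were 15.1 and 14.1 FPKM in RD and 5.59 and 6.03 FPKM in Rh30, and the LIFR means 15.1 and 12.0 FPKM in RD, with an adjusted p of 0.0542, and 11.7 and 10.9 FPKM in Rh30.

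Of the 15 genes of IL-6 family receptors and JAK-STAT3 signalling, 4 rose and 2 fell in RD, which is 6 of 15 called. In Rh30, 2 rose and 4 fell, which is 6 of 12 tested. Of all genes tested, 41.1% were called in RD and 28.5% in Rh30, so the share in RD was near that of genes at large. STAT3 rose in RD from 71.5 to 91.0 FPKM in the mean (0.34 ± 0.05 on the log2 scale, adjusted p = 0.00131), as did the phosphatase gene PTPN11 (0.42 ± 0.05, adjusted p = 0.000504). JAK1, a kinase bound to gp130, fell in Rh30 by 0.80 ± 0.05 on the log2 scale, from 73.2 to 41.5 FPKM in the mean (adjusted p = 0.000155). TYK2, another kinase of this family, rose in Rh30 by 0.27 ± 0.06 (adjusted p = 0.0201). SOCS3, the feedback inhibitor, fell in both lines, from 42.0 ± 2.0 to 27.1 ± 1.8 FPKM in RD (adjusted p from limma = 0.000428) and from 35.0 ± 0.76 to 20.5 ± 0.42 FPKM in Rh30 (SD, n = 3 each, adjusted p from limma = 0.000168).

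The chemokine CCL2 (chr17:34255218-34257203) was at 41.4, 44.6 and 39.3 FPKM in RD Scramble and 47.6, 47.9 and 49.2 FPKM in RD KDM3A-sh2. The groups did not overlap, and CCL2 rose by 0.21 ± 0.05 on the log2 scale (limma, adjusted p = 0.0218). That call too was kept without Scramble replicate 2 and lost without any of the other 5 RD libraries (adjusted p up to 0.0637). In Rh30 CCL2 was at 7.88, 6.78 and 8.17 FPKM with Scramble and 2.74, 3.58 and 3.82 FPKM with KDM3A-sh2. It fell there by 0.98 ± 0.12 (adjusted p = 0.00227), to 44.4% of the mean with Scramble. Its receptor gene CCR2 was listed at 0 in all 12 libraries.

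CXCL1 (chr4:73869393-73871242) was low in RD, at 1.70, 1.65 and 2.32 FPKM with Scramble and 1.98, 1.31 and 2.12 FPKM with KDM3A-sh2. Both groups overlapped (limma, −0.05 ± 0.17 on the log2 scale, adjusted p = 0.845), and no Rh30 library was above 0.12 FPKM. CXCL1, CXCL2 and CXCL3 are close in sequence, so reads could be split among them and their levels are uncertain. CXCL12 (chr10:44370165-44386493, minus strand) was at 9.41, 9.57 and 9.04 FPKM in RD Scramble and 9.32, 9.55 and 8.13 FPKM in RD KDM3A-sh2, and in Rh30 at 0.031 FPKM at the most. It did not pass the test in RD either (limma, −0.05 ± 0.08, adjusted p = 0.641).

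The receptors of CXCL12 were high in the line in which the ligand was at or near 0. CXCR4 was at 164, 166 and 168 FPKM in Rh30 Scramble and 164, 158 and 160 FPKM in Rh30 KDM3A-sh2, against 2.74, 2.73 and 2.79 FPKM in RD Scramble. ACKR3, the scavenging receptor of CXCL12, was at 80.2, 90.0 and 73.4 FPKM in Rh30 Scramble and at 0.33 FPKM or less in RD. Neither receptor passed the test for KDM3A-sh2 in Rh30 (limma, adjusted p = 0.282 for CXCR4 and 0.0647 for ACKR3, the latter at an unadjusted p of 0.0207). CXCR2, the receptor of CXCL1, was listed at 0 in 11 libraries and at 0.016 FPKM in the other.

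Other cytokines and chemokines of RD moved in both directions. Of 10 other cytokines tested, 5 rose and 1 fell (60.0%), and of 7 other chemokines 1 rose and 2 fell (42.9%). Of all genes tested in RD 41.1% were called. IL1B, which encodes the inflammatory cytokine IL-1β, fell from 57.7, 58.1 and 61.1 FPKM to 26.6, 27.0 and 26.2 FPKM, by 1.12 ± 0.04 on the log2 scale (limma, adjusted p = 1.24e-05). CXCL8, a neutrophil chemokine, fell from 80.9 ± 5.3 to 61.3 ± 1.8 FPKM (SD, n = 3 each, adjusted p from limma = 0.00153). CTF1 (cardiotrophin-1, of the IL-6 family) and IL32 rose, by 0.92 ± 0.10 and 0.83 ± 0.11 (adjusted p = 0.000569 and 0.0012). PTX3 thus rose in RD libraries in which IL1B, IL6 and CXCL8 fell and CTF1, IL32, IL11 and CCL2 rose. IL7, IL12A and IL15 averaged 170.1%, 148.2% and 139.2% of their RD Scramble means in the RD KDM3A-sh2 libraries. In Rh30, 2 of 6 other cytokines tested rose and 1 fell, beside 15.3% and 13.2% of all genes tested there. IL32 was higher in Rh30 by 0.26 ± 0.05 (adjusted p = 0.0138). No other chemokine passed the test in Rh30, of 2 tested by limma, and none did at an unadjusted p under 0.05 or with unlogged FPKM.

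**Figure D3:**
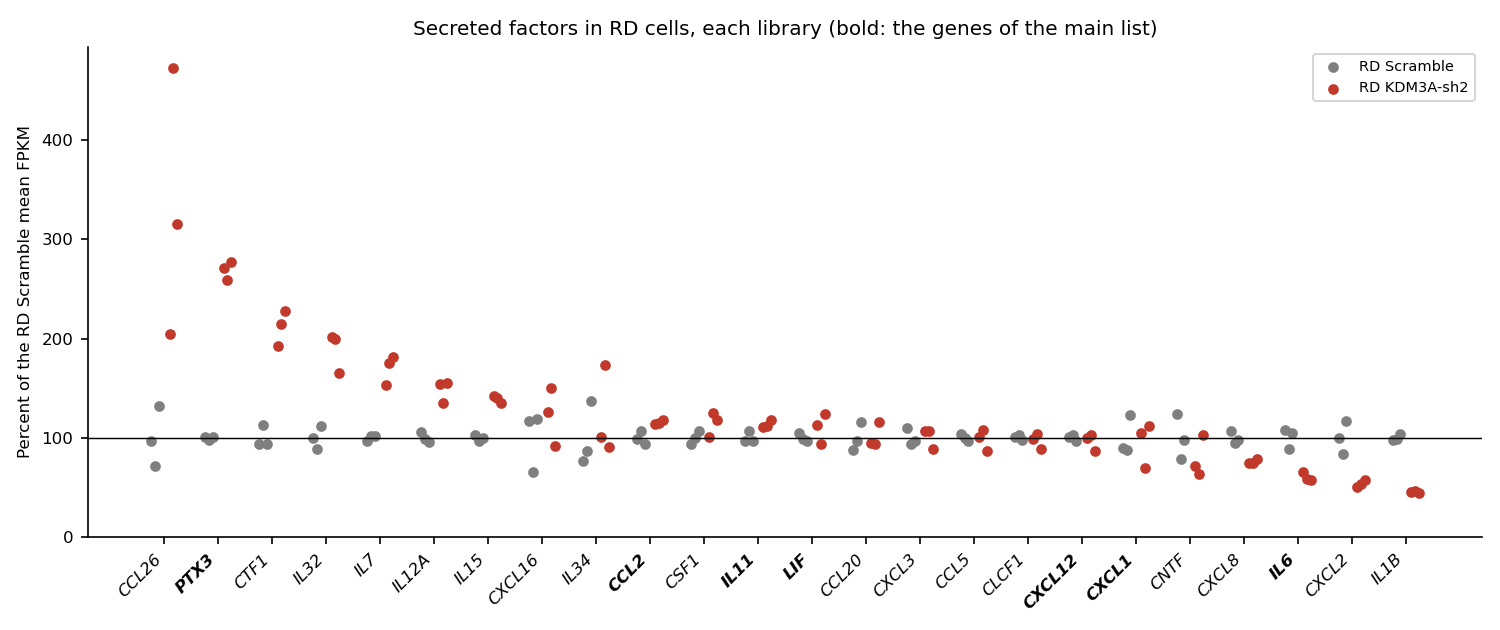
Level of 24 secreted factors in each RD library as a percentage of the RD Scramble mean FPKM of that gene (vertical axis, linear from 0; grey Scramble, red KDM3A-sh2), in the order of the change. Names in bold are PTX3 and the 6 cytokine and chemokine members, and the others are all genes of the other cytokine and chemokine lists that averaged 1 FPKM or more. PTX3 averages 269.2% of Scramble, next to CCL26 at 331.2% on a level of 0.9 FPKM, while IL6 averages 60.3% and IL1B 45.1%.

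TNFRSF12A (chr16:3018445-3022383) had the highest FPKM of the 10 genes in each of the 4 groups. In RD it was at 136, 133 and 137 FPKM with Scramble and 225, 224 and 225 FPKM with KDM3A-sh2, a rise of 0.72 ± 0.03 on the log2 scale (limma, adjusted p = 1.48e-05), or 1.66 times in the mean. In Rh30 it was at 136, 135 and 131 FPKM with Scramble and 108, 107.5 and 111 FPKM with KDM3A-sh2. There it fell by 0.30 ± 0.03 (adjusted p = 0.00141), to 81.0% of the mean with Scramble. The Scramble levels of the lines overlapped, so the same receptor gene moved in opposite directions from a like level. The gene of its ligand, TNFSF12 (TWEAK), was at 0.61 FPKM or less in RD and 0.14 FPKM or less in Rh30. Of the other 9 TNF receptor family genes and ligands tested in RD, 4 passed, all higher (44.4%, beside 41.1% of all genes tested). TNFRSF19 was up by 0.92 ± 0.06 (16.0 to 31.1 FPKM, limma, adjusted p = 6.63e-05) and TNFRSF21 by 0.68 ± 0.04 (37.1 to 60.2 FPKM, adjusted p = 4.81e-05). Of 6 tested in Rh30 3 passed, all lower, beside 13.2% of all genes tested there that fell and 28.5% called in all. Among the 3 were the death receptors TNFRSF1A, which fell from 92.8 ± 13.3 to 66.3 ± 9.0 FPKM (SD, n = 3 each, adjusted p from limma = 0.0358), and TNFRSF10B, which fell by 0.35 ± 0.06 on the log2 scale (adjusted p = 0.00593).

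The NF-κB feedback members showed small differences with KDM3A-sh2. NFKBIA (chr14:35401511-35404749, minus strand) was at 29.9, 35.6 and 36.6 FPKM in RD Scramble and 34.3, 46.9 and 45.3 FPKM in RD KDM3A-sh2. The ranges overlapped and the difference of 0.30 ± 0.13 on the log2 scale did not pass the test (limma, adjusted p = 0.116). Without KDM3A-sh2 replicate 1, the lowest of its group, it was 0.43 with adjusted p = 0.0166. In Rh30 NFKBIA was at 39.6, 41.6 and 34.1 FPKM with Scramble and 46.0, 44.5 and 50.3 FPKM with KDM3A-sh2, a rise of 0.28 ± 0.08 (adjusted p = 0.0454) that was kept without Scramble replicate 2 and lost without any of the other 5 Rh30 libraries (adjusted p up to 0.123). TNFAIP3 (chr6:137867188-137883312) was at 1.31, 1.48 and 1.62 FPKM in RD Scramble and 1.49, 1.11 and 1.86 FPKM in RD KDM3A-sh2. Its Rh30 levels were 34.6, 36.7 and 34.7 FPKM with Scramble and 34.8, 33.2 and 35.7 FPKM with KDM3A-sh2. Its groups overlapped in both lines (limma, adjusted p = 0.994 and 0.676).

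The NF-κB subunits themselves were expressed in both lines. Of the 5 subunit genes only NFKB1 passed the test, in RD, where it rose from 15.8 ± 1.8 to 19.3 ± 0.50 FPKM (SD, n = 3 each, adjusted p from limma = 0.0364). In Rh30 none of the 5 passed the test in limma, 1 was at an unadjusted p under 0.05 and none passed with unlogged FPKM. RELA was at 62.8 and 64.7 FPKM in RD and 66.6 and 63.2 FPKM in Rh30, NFKB2 at 20.1 and 18.5 FPKM in RD and 25.3 and 21.9 FPKM in Rh30, RELB at 9.66 and 10.1 FPKM in RD and 5.03 and 4.07 FPKM in Rh30, and REL at 1.61 and 1.41 FPKM in RD and 3.46 and 3.57 FPKM in Rh30. Of the other inhibitors and feedback genes, 4 of 11 tested (36.4%) passed in each line, all of them lower. Of all genes tested, 41.1% passed in RD and 28.5% in Rh30. CYLD, a deubiquitinase that restrains the pathway, fell in both lines. Its log2 fold change was −0.52 ± 0.08 in RD and −0.56 ± 0.09 in Rh30 (limma, adjusted p = 0.00272 and 0.00566). NFKBIE, an IκB protein, fell in RD by 0.64 ± 0.18 (adjusted p = 0.028), and NFKBIZ, a nuclear IκB protein, fell in Rh30 by 0.71 ± 0.08 (adjusted p = 0.00124). Of 14 genes of the IKK complex and upstream signalling, 3 rose and 5 fell in RD (57.1%) and 1 rose and 1 fell in Rh30 (14.3%). In RD the kinase gene IKBKB rose by 0.45 ± 0.09 (adjusted p = 0.00617) and TAB1 by 0.43 ± 0.05 (adjusted p = 0.000887), while the adaptor genes TRAF2 and MYD88 fell, TRAF2 by 0.77 ± 0.12 (adjusted p = 0.00231) and MYD88 by 0.40 ± 0.05 (adjusted p = 0.000635). In Rh30 the adaptor gene TRADD rose by 0.57 ± 0.10 (adjusted p = 0.00728) and the kinase gene MAP3K14 fell by 0.52 ± 0.08 (adjusted p = 0.00417).

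**Figure D4:**
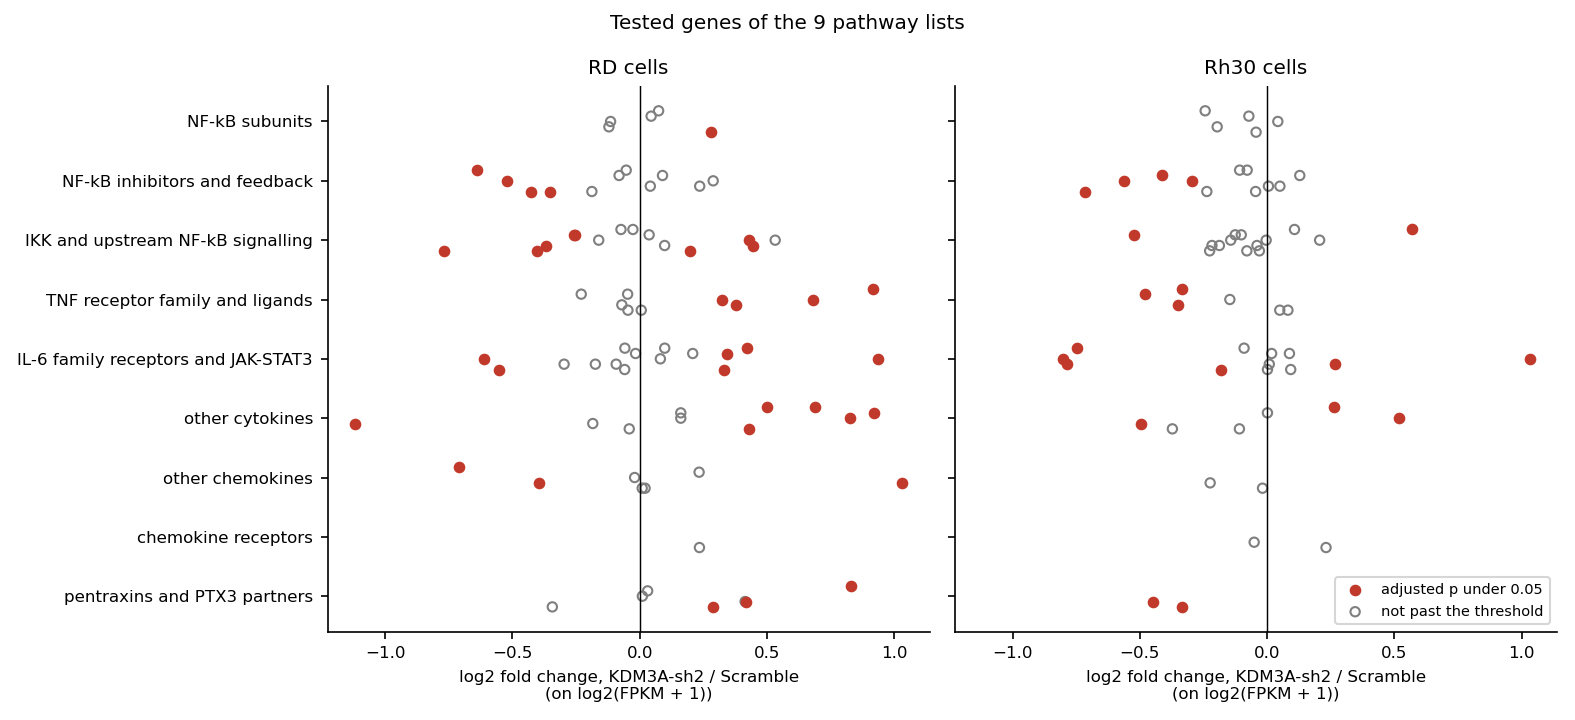
Log2 fold change of KDM3A-sh2 over Scramble on log2(FPKM + 1) (horizontal axes) for every tested gene of the 9 pathway lists (rows), in RD (left) and Rh30 (right), with genes past an adjusted p of 0.05 filled. In RD 21 of 79 tested genes rose and 14 fell, and in Rh30 5 of 60 rose and 15 fell. These are 44.3% and 33.3% called, beside 41.1% and 28.5% of all genes tested.

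Over the 9 lists, 124 genes without the members, 21 of 79 tested rose and 14 fell in RD (44.3% called) and 5 of 60 rose and 15 fell in Rh30 (33.3% called). Of all genes tested, 21.6% rose and 19.5% fell in RD (41.1% called), and 15.3% rose and 13.2% fell in Rh30 (28.5% called). The medians over the lists were 0.02 in RD and −0.09 in Rh30. For the difference between the lines, Rh30 minus RD, 6 of 77 tested genes had a higher and 28 a lower effect in Rh30 (44.2% called, beside 27.8% of all genes). Some of the 77, such as NPTX2 (means of 0 and 0.46 FPKM in Rh30), averaged 1 FPKM only through RD. For such genes the difference restates the change in RD, and their share of these calls was not counted. The counts therefore do not show how many genes responded differently in the lines.

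Whether KDM3A-sh2 acted differently in the lines was tested as the difference of its log2 effect, Rh30 minus RD, over all 12 libraries. Of the 8 members tested without PTX3, 5 passed, 1 with a higher and 4 with a lower effect in Rh30, beside 14.4% and 13.4% of 18517 genes, 27.8% in all. The difference was −1.73 ± 0.16 for LIF (adjusted p = 3.02e-05), −1.19 ± 0.14 for CCL2 (adjusted p = 0.000107), −1.08 ± 0.07 for IL11 (adjusted p = 2.84e-06) and −1.03 ± 0.04 for TNFRSF12A (adjusted p = 7.86e-08) by limma. IL6, the member with the higher effect, was listed at 0 in every Rh30 library and was tested only because of its level in RD. Its difference of 0.61 ± 0.13 (adjusted p = 0.00589) is the fall in RD with the sign turned and does not show that the effect differed between the lines. Among the 6 members that reached 1 FPKM in both lines, 4 passed. NFKBIA (−0.01 ± 0.17, adjusted p = 0.973) and TNFAIP3 (−0.03 ± 0.14, adjusted p = 0.901) did not pass, nor did CXCL12 (0.06 ± 0.12, adjusted p = 0.747). Of all genes called here 51.7% had the higher effect in Rh30, and 40.6% after the libraries were rescaled to the same sum. The members kept their calls and directions under that rescaling.

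The lines also differed in the level of most members before depletion. Between Rh30 Scramble and RD Scramble 74.5% of 18357 genes differed, 35.0% higher and 39.6% lower in Rh30, and 6 of 8 members tested without PTX3 did, 2 higher and 4 lower. TNFAIP3 was 24.0 times higher in Rh30 in the mean (limma, 3.88 ± 0.08 on the log2 scale, adjusted p = 3.36e-08) and IL11 1.81 times (0.83 ± 0.06, adjusted p = 1.42e-05). LIF was at 34.6% of its RD level (−1.41 ± 0.07, adjusted p = 1.52e-06) and CCL2 at 18.2% (−2.31 ± 0.08, adjusted p = 4.67e-07). IL6 and CXCL12 were called lower in Rh30 (adjusted p = 5.71e-07 and 1.34e-07), where they were listed at or near 0. Both are among the 4 lower members and entered this test only through their level in RD Scramble, which largely fixed their calls. NFKBIA (0.17 ± 0.10, adjusted p = 0.168) and TNFRSF12A (−0.01 ± 0.03, adjusted p = 0.724) did not pass. In the order of group means, TNFRSF12A was highest in RD KDM3A-sh2 and lowest in Rh30 KDM3A-sh2, with RD and Rh30 Scramble overlapping between them. IL11 was highest in Rh30 Scramble, and its other 3 groups lay between 23.5 and 29.9 FPKM. CCL2 and LIF ran from RD KDM3A-sh2 and RD Scramble down to Rh30 Scramble and Rh30 KDM3A-sh2, with the RD groups of LIF overlapping.

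The genes most like PTX3 over the 12 libraries, by Pearson correlation of log2(FPKM + 1) among 11016 genes that averaged 10 FPKM or more, were CDK15 (0.9993), COL11A1 (0.9992), EHD3 (0.9992), CLIP3 (0.9991) and FN1 (0.999). The lowest correlations were those of HMGB1P5 (−0.9994), a pseudogene whose reads may be shared with its parent gene, E2F1 (−0.9991) and GRK6 (−0.9987). These values mostly follow the difference between the lines and are a description. FN1, which encodes fibronectin, had means of 1539 and 2958 FPKM in RD and 195.6 and 212 FPKM in Rh30, and COL11A1, a fibrillar collagen gene, 20.8 and 47.2 FPKM in RD and 0.015 and 0.18 FPKM in Rh30.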

How the data were processed

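The authors aligned directional mRNA reads to GRCh38 with GSNAP, used SAMtools and computed FPKM with Cufflinks, and deposited unlogged FPKM for 12 libraries. The annotation release and the strand setting of the counting are not given in the sources used here. The Methods state a shorter read length than the labels. Read counts cannot be had from FPKM, so depth is relative and limits the precision of low genes. The placeholder 999999999 was read as missing (17 genes), 117 identifiers occurred repeatedly and were reduced to their highest entry by mean, giving 65975 genes. Positions came from GENCODE 29 (86.3% of identifiers matched).

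KDM3A-sh2 and Scramble were compared with limma 3.58.1 in R 4.3.3 (lmFit and trended eBayes) on log2(FPKM + 1). Genes that averaged 1 FPKM or more in the libraries of the fit and had no missing value were tested, two-sided, with Benjamini-Hochberg adjustment. A fold on this scale understates the change of low genes. The study tested FPKM by group in R, and the Methods do not say whether on a log scale. A test of unlogged FPKM was run as an alternative. Tests were tried on simulated data first. PTX3 was left out of tests that hold RD libraries. Single members were also given an exact permutation test, which cannot go below 0.1 with 3 against 3 libraries, and every member called within a line or between Scramble groups had 0.1.

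The members and lists were chosen with earlier results of these data known. Named pathway genes were, by list, line and direction, up to 2 called genes with the largest change and a mean of at least 5 FPKM, plus the receptors of the members, TNFSF12 and the NF-κB subunits. NPTXR, CRP, APCS, CCL26, CD68, SOCS1, IL7, IL12A, IL15, CHRNA1 and MYOG were chosen after their values were seen. So were values of a named gene in the other line. One gene that the rule selects is not reported here. Alternatives were a pseudocount of 0.1, no filter, a filter of 10 FPKM, 2 rescalings, limma without a trend, a spread shared over 12 libraries, unlogged FPKM, a 1.5-fold minimum, a replicate block and leaving out each library. Figures were drawn with matplotlib 3.10.9 in Python 3.11.15.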

Additional observations from a re-analysis of the deposited data

Results flagged for a closer look

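For 4 members the KDM3A-sh2 effect differed between the lines by the test of the difference itself (limma over 12 libraries, Rh30 minus RD on the log2 scale). The differences were −1.08 for IL11, −1.73 for LIF, −1.19 for CCL2 and −1.03 for TNFRSF12A. IL11, CCL2 and TNFRSF12A rose in RD and fell in Rh30 by the tests within each line, and LIF fell in Rh30. The RD rises of IL11 and CCL2 were small (0.18 and 0.21), and their calls were lost in 10 and 8 of 16 alternatives. IL6 also passed the test of the difference, with 0.61, but it was listed at 0 in every Rh30 library, so its value restates the fall in RD. With a pseudocount of 0.1 IL6 did not pass (limma, adjusted p = 0.0986). The larger depletion of KDM3A in RD goes along with these differences and its part in them was not tested, and line and medium cannot be told apart.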

How the results depend on the processing

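With a minimum of 1.5-fold, 2 members passed in RD and 3 in Rh30, and 13 and 5 genes of the pathway lists. With a filter of 10 FPKM, 3 members passed in Rh30, where fewer members were tested. Leaving out 1 library at a time gave 2 to 4 members in RD, 2 without Scramble replicate 1 or 3 or KDM3A-sh2 replicate 2 or 3, and 4 to 5 in Rh30, 29 to 34 and 15 to 17 pathway genes, 5 members for the difference between lines and 6 to 7 between the Scramble groups. TNFRSF12A and IL6 in RD and IL11, LIF and CCL2 in Rh30 kept direction and call under every alternative that tested them, as did IL11, LIF, CCL2 and TNFRSF12A for the difference. IL6 lost its call for the difference with a pseudocount of 0.1 (adjusted p = 0.0986). NFKBIA in Rh30 lost its call in 13 of 16 alternatives, IL11 in RD in 10 of 16 and CCL2 in RD in 8 of 16. The cause was not tested.

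The signs of differences near 0, none of them called, changed. For RD these were CXCL1 (−0.131 to 0.0849 without 1 library), CXCL12 (−0.0904 to 0.0136) and TNFAIP3 (−0.107 to 0.110, and 0.0194 after rescaling to the same sum, 0.0006 after rescaling by the median ratio and 0.0127 FPKM unlogged). For the difference between lines they were CXCL12 (−0.0051 to 0.0988), NFKBIA (−0.149 to 0.0772, and 0.32 FPKM unlogged) and TNFAIP3 (−0.141 to 0.0768). Between the Scramble groups TNFRSF12A went from −0.0256 to 0.0012 without 1 library, to 0.0362 after rescaling by the median ratio and to −0.12 (adjusted p = 0.0179) after rescaling to the same sum, which moved the median of all genes from −0.04 to −0.14. The PTX3 difference between lines was −0.14 with a pseudocount of 0.1, since PTX3 was near 0 in Rh30, and its RD difference lay between 1.39 and 1.45 on the log2 scale.

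Same-numbered libraries did not deviate together (correlations of −0.09 to −0.05 in RD and −0.25 to −0.09 in Rh30). With 3 libraries per group this cannot show whether the numbers pair the samples, and the main fits used no pairing. In the column labels all 3 Rh30 Scramble libraries end in the same number, unlike those of the other groups, and this is not explained. With a replicate block 3 members passed in RD and 4 in Rh30, 30 and 15 pathway genes, 5 members for the difference and 6 between the Scramble groups. NFKBIA then passed in RD (adjusted p = 0.0182) and IL11 and CCL2 did not (0.0885 and 0.0517).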
